A study of Arabidopsis thaliana with 26 samples.

Results

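The 5 genes described here are grouped under the transport, synthesis and breakdown of glucosinolates in Arabidopsis thaliana. These genes are GTR1 (AT3G47960), GTR2 (AT5G62680), AOP1 (AT4G03070), BCAT4 (AT3G19710) and PYK10 (AT3G09260). They were chosen by name, for the roles they are grouped under, with earlier results of these data known. They are 5 of the 13350 genes that a probe set of the array annotation names alone. Each has 1 such probe set: 252377_at for GTR1, 247440_at for GTR2, 255438_at for AOP1, 257021_at for BCAT4 and 259009_at for PYK10. All 5 passed the filter on dim probe sets. AOP1 was the dimmest, with a mean over all arrays at the 58.9th percentile of all probe sets, and the other 4 lay above the 81st, which says nothing about which gene has more transcript. For PYK10 and AOP1 these means are carried mostly by the agar groups. In 00f and 03f, PYK10 (16.9 to 35.8) and AOP1 (17.5 to 34.9) lay below the array medians of 38.2 to 44.4.

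Glucosinolates are sulfur-rich defence compounds of the cabbage order, made from methionine, tryptophan and other amino acids and stored in leaves and seeds. When tissue is damaged, beta-glucosidases called myrosinases cut off the glucose and release toxic products. In the methionine branch the amino acid is first lengthened, a cycle that BCAT4 opens in the cytosol by removing the amino group. The core structure is then built and its side chain is modified, in part by 2-oxoglutarate-dependent dioxygenases of the AOP family, to which AOP1 belongs. GTR1 and GTR2 are proton-coupled importers of the plasma membrane that load glucosinolates into the phloem, for example on the way to the seeds. PYK10, also called BGLU23, is a beta-glucosidase of the ER bodies, rod-shaped compartments of seedling epidermis and roots.

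The transcript levels come from the aerial tissue of plants at growth stage 1.14, measured on 26 Affymetrix ATH1 arrays (1 colour, 1 RNA sample per array, 18 plants pooled per sample). There are 13 groups of 2 arrays. The 10 groups raised on agar, in ecotype Columbia-0 at 21 °C, 100% humidity and continuous light, hold 3 lines from a chemical (EMS) mutagenesis labelled sf6, sf3 and sf2, and wild type (wt). The series title ties these lines to the mutations sfr6, sfr3 and sfr2, known for sensitivity to freezing. All 4 lines were sampled after 24 h at 4 °C under continuous light (cold) and untreated (control). A drought treatment was given to sf6 and wt: shoots were severed and left in an air stream at 20 to 22 °C for 2 h. It is set against intact control plants, since no group of severed but undried shoots is described, so cutting and drying cannot be told apart. The other 3 groups carry the codes 00f, 03f and 24f, which the labels explain no further, and their genotype is not given. Compost containing Intercept was the medium, and the plants were kept at 4 °C in 70% humidity under a day of 9 h light. Medium, temperature, humidity and light all differ between agar and compost plants, so their parts cannot be told apart, and no test was made between the 2 kinds of plant.

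Each value is the intensity of a probe set, on a linear scale on which every deposited array has the same trimmed mean of 100.01. Replicate arrays correlated at 0.983 to 0.992 on the log2 scale, and no 2 arrays were identical. Separate sowings are not stated for the replicates, so the p-values below reflect a spread that may be no more than technical. A repeat mark closes the titles of 2 arrays, sf6 drought replicate 2 and wt control replicate 1. These repeat1 arrays also had the lowest scanner background of the 26 (64.5 and 64.1, against 70.6 to 121 on the others). The probe sets of RCA, PRK, LHCB4.1 and LHCB4.2, the 4 of 13 listed leaf markers with a named probe set, had intensities between 507 and 3630 on all arrays, so the tissue carried its leaf markers throughout. The 2 of 13 listed root markers with a named probe set, the root hair expansin genes EXPA7 and EXPA18, were dim but not at 0, between 10.0 and 36.6. No named probe set was found for the 5 listed flower markers, and of 5 markers of guard and myrosin cells only FMA had one (26.4 to 91.0).

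**Figure D1:**
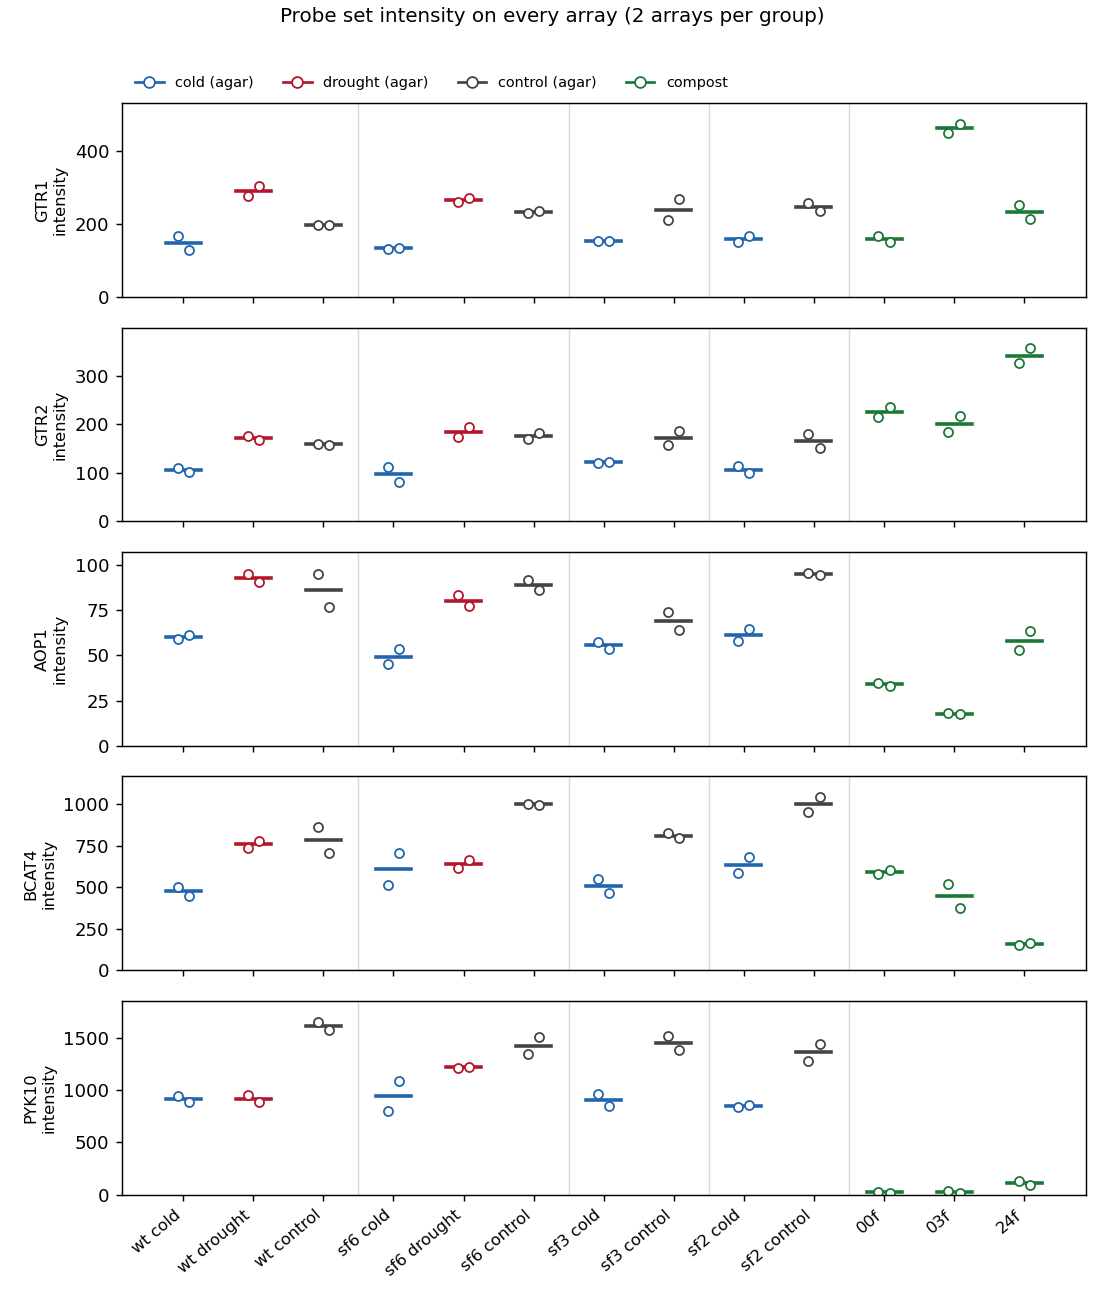
Probe set intensity (linear scale, vertical axis from 0) of GTR1, GTR2, AOP1, BCAT4 and PYK10 on each of the 26 arrays, by group. Circles are the 2 arrays of a group and the bar is their mean. The cold arrays lie below the control arrays of the same line in every panel, GTR1 peaks at 472.4 in 03f, and PYK10 stays at or below 129.4 in the 3 compost groups.

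In plants moved to 4 °C for 24 h, the transcripts of all 5 genes had lower mean intensities than in untreated plants, in wt and in each mutant line. Cold levels were between 55.2% and 80.8% of the control levels of the same line. Of the 20 changes (5 genes in 4 lines), 19 passed the test as falls, and the exception was AOP1 in sf3. The test was limma's moderated test on log2(intensity + 16), with p-values adjusted over all 17059 probe sets of a comparison and a threshold of 0.05, so each change below is a log2 change on that scale. The cold response is broad, and falls were common among all probe sets tested: 26.4% were called lower in wt, 25.9% in sf6, 24.2% in sf3 and 23% in sf2, and 20.7%, 19.6%, 20% and 19.8% were called higher. With arrays scaled to their medians the shares were 20.1%, 20%, 19.3% and 20.3% lower and 26.5%, 24.2%, 24.9% and 21.8% higher. In all 20 changes both cold arrays lay below both control arrays, as for 40.4%, 40.5%, 37.2% and 38.8% of all probe sets in wt, sf6, sf3 and sf2. The median change of the 5 genes was -0.52 in wt, -0.72 in sf6, -0.58 in sf3 and -0.58 in sf2, beside -0.054, -0.06, -0.047 and -0.018 over all probe sets (0.05, 0.028, 0.04 and 0.017 with median scaling).

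The transporter GTR1 had 167.3 and 128.6 in wt cold, against 197.2 and 197.7 in wt control. In sf6 it had 131.5 and 134.6 in cold, against 228.5 and 235.5 in control. In sf3 it had 153.5 and 154.3 in cold, against 211.0 and 266.5 in control, and in sf2 149.2 and 168.0 in cold, against 256.7 and 234.0 in control. Both cold arrays lay below both control arrays in every line. The log2 change was -0.39 in wt (SE 0.12, adjusted p = 0.0122), -0.73 in sf6 (adjusted p = 7.98e-05), -0.58 in sf3 (adjusted p = 0.000769) and -0.58 in sf2 (adjusted p = 0.00075). The wt value was the least secure. It missed the threshold without wt cold replicate 2 (-0.22, adjusted p = 0.198), without wt control replicate 2 (adjusted p = 0.0525), without both repeat1 arrays (0.0624), when the fit held the 2 compared groups alone (0.0506) and with arrays scaled to their medians (-0.26, 0.114).

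GTR2, its close relative in the same transporter family, had 111.1 and 101.5 in wt cold, against 160.0 and 157.4 in wt control. In sf6 it had 112.3 and 82.0 in cold, against 170.0 and 181.4 in control. Sf3 had 120.5 and 123.0 in cold, against 158.2 and 186.1 in control, and sf2 114.3 and 99.6 in cold, against 180.2 and 151.7 in control. Again no cold array reached a control array of its line. The log2 changes were -0.52 in wt (SE 0.13, adjusted p = 0.00282), -0.77 in sf6 (adjusted p = 8.76e-05), -0.45 in sf3 (adjusted p = 0.00828) and -0.56 in sf2 (adjusted p = 0.00163). The sf3 call was lost without sf3 control replicate 2 (-0.34, adjusted p = 0.0877).

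AOP1, the dioxygenase gene, had 59.3 and 61.2 in wt cold, against 94.9 and 76.9 in wt control. The sf6 arrays held 45 and 53.3 in cold, against 91.9 and 86.1 in control. The sf2 arrays held 58.0 and 64.6 in cold, against 95.6 and 94.2 in control. These were falls of 0.41 in wt (log2 change -0.41, SE 0.11, adjusted p = 0.00502), of 0.69 in sf6 (-0.69, adjusted p = 6.41e-05) and of 0.52 in sf2 (-0.52, adjusted p = 0.000946). In sf3 the arrays did not overlap either, with 57.5 and 53.7 in cold, against 73.7 and 64 in control, but the change of -0.24 (95% interval -0.47 to -0.01) missed the threshold (adjusted p = 0.0831). AOP1 in sf3 control was also the lowest of the 4 control levels, 68.9 ± 6.86 (SD, n = 2). The wt call did not hold when both repeat1 arrays (adjusted p = 0.101) or wt control replicate 1 alone (-0.29, adjusted p = 0.0899) were left out. A pseudocount of 64 in place of 16 shrank the changes of this dim gene to -0.27 in wt, -0.44 in sf6 and -0.34 in sf2.

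BCAT4, the methionine aminotransferase gene at the entry to the pathway, fell in all 4 lines. It had 503.2 and 445.9 in wt cold, against 861.9 and 705.4 in wt control. It had 511.9 and 703.8 in sf6 cold, against 1000.5 and 996.6 in sf6 control. Cold levels were 60.6% of control in wt, 60.9% in sf6, 62.4% in sf3 and 63.6% in sf2. The sf3 arrays had 549.3 and 462.6 in cold, against 825.1 and 797.3 in control, and the sf2 arrays 588.7 and 682.7 in cold, against 956.2 and 1042.5 in control. The log2 changes were -0.70 (SE 0.14, adjusted p = 0.000416), -0.72 (0.000351), -0.67 (0.000676) and -0.64 (0.00103) in wt, sf6, sf3 and sf2.

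PYK10 had 942.1 and 884.8 in wt cold, against 1659.1 and 1579.7 in wt control. The sf6 arrays had 803.0 and 1088.8 in cold, against 1345.1 and 1508.7 in control. The sf3 arrays had 966.4 and 851.9 in cold, against 1517.9 and 1385.8 in control, and the sf2 arrays 840.9 and 856.4 in cold, against 1285.9 and 1440.2 in control. The cold group means lay between 848.7 in sf2 and 945.9 in sf6. The log2 changes were -0.82 in wt (SE 0.12, adjusted p = 2.76e-05), -0.60 in sf6 (0.000588), -0.67 in sf3 (0.000224) and -0.67 in sf2 (0.000232). Without sf6 cold replicate 1 the sf6 change was -0.38, still past the threshold. In whole aerial tissue, fewer cells of a type and less RNA per cell cannot be told apart. The summed intensity of the 4 leaf markers was lower in the cold too (6342 to 9252 over the cold arrays, against 10714 to 12419 over the control arrays), and that of the 2 root markers was 26.2 to 54.4 in cold, against 43.0 to 60.2 in control. The part of these in the falls was not tested.

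**Figure D2:**
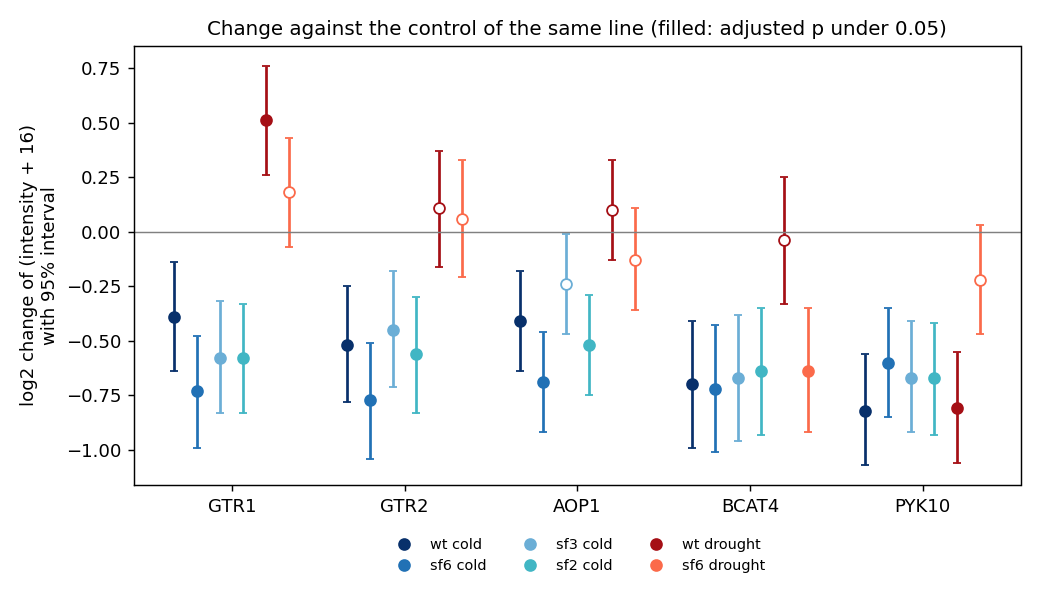
Log2 change of (intensity + 16) with its 95% interval for each gene, in cold against control of wt, sf6, sf3 and sf2 and in drought against control of wt and sf6. Filled points passed an adjusted p of 0.05 by limma. The cold points lie between -0.82 and -0.24, and in drought GTR1 of wt is at 0.51 and PYK10 of wt at -0.81.

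Drying gave another picture, in which the 5 genes did not move together. In wt, GTR1 rose, PYK10 fell and the other 3 genes were not called. In sf6, BCAT4 fell and the other 4 were not called. Of all probe sets, 4.85% were called higher and 4.97% lower in wt drought (5.15% and 3.75% with arrays scaled to their medians), and 2.15% and 1.78% in sf6 drought (1.93% and 1.7% so scaled). The cold and drought comparisons of a line use the same control arrays.

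GTR1 had 275.1 and 302.2 in wt drought, against 197.2 and 197.7 in wt control. This is 146% of the control level (log2 change 0.51, SE 0.12, adjusted p = 0.0117), at the 95.7th percentile of the changes of all probe sets. In sf6 it had 260.2 and 270.6 in drought, against 228.5 and 235.5 in control. The sf6 change of 0.18 (95% interval -0.07 to 0.43) missed the threshold (adjusted p = 0.468). The wt call did not hold without wt drought replicate 2 (adjusted p = 0.112), wt control replicate 1 (0.0725), wt control replicate 2 (0.0615) or both repeat1 arrays (0.0954), with changes between 0.45 and 0.51.

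PYK10 had 950.7 and 886.2 in wt drought, against 1659.1 and 1579.7 in wt control, a level of 56.7% that was close to that of wt cold (918.5 ± 45.6 in drought and 913.5 ± 40.5 in cold, SD, n = 2 each). The log2 change of -0.81 (SE 0.12, adjusted p = 0.000435) was among the lowest of all probe sets, at the 0.7th percentile, whereas the cold change of the same size stood at the 9.5th percentile of its comparison. In sf6 PYK10 had 1218.4 and 1224.6 in drought, against 1345.1 and 1508.7 in control. That change was -0.22 (95% interval -0.47 to 0.03, adjusted p = 0.369). The markers moved with this comparison in part. The 4 leaf markers summed to 10125 to 10578 in wt drought, against 11228 to 12419 in wt control, and FMA was 72.2 to 91.0 in wt drought, against 63.9 to 66.1 in wt control, both without overlap. The 2 root markers summed to 49.4 to 58.6 in wt drought, against 43.8 to 54.3 in wt control. In sf6 the drought and control ranges overlapped for all of these markers. The leaf markers summed to 10207 to 12607 in sf6 drought, against 11210 to 11295 in sf6 control. There FMA was 72.5 to 80.3, against 70.6 to 75.8, and the root markers summed to 56.3 to 57.3, against 44.9 to 60.2. Their part in the fall of PYK10 was not tested.

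For BCAT4 the call was in sf6. It had 613.7 and 661.3 in sf6 drought, against 1000.5 and 996.6 in sf6 control (log2 change -0.64, SE 0.14, adjusted p = 0.0145, 1st percentile). In wt it had 737.6 and 777.7 in drought, against 861.9 and 705.4 in control, and these arrays overlapped (-0.04, 95% interval -0.33 to 0.25, adjusted p = 0.898). The sf6 call was lost when any of the 4 compared arrays was left out: the adjusted p was 0.0918 without sf6 control replicate 1, 0.107 without sf6 control replicate 2, 0.135 without sf6 drought replicate 1 and 0.0644 without sf6 drought replicate 2, and it was 0.0578 without both repeat1 arrays.

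GTR2 and AOP1 were not called in either line after drying. GTR2 had 176.6 and 167.3 in wt drought, against 160.0 and 157.4 in wt control, and 173.1 and 194.5 in sf6 drought, against 170.0 and 181.4 in sf6 control. Its changes were 0.11 (95% interval -0.16 to 0.37) and 0.06 (-0.21 to 0.33). AOP1 had 94.9 and 90.5 in wt drought, against 94.9 and 76.9 in wt control, and 83.6 and 77.0 in sf6 drought, against 91.9 and 86.1 in sf6 control. Its changes were 0.10 (-0.13 to 0.33) and -0.13 (-0.36 to 0.11).

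None of the 5 genes was called different between a mutant and wt. In untreated plants 0 of 15 values passed limma's adjusted threshold, where 0.0293%, 0.129% and 0.111% of all probe sets were called in sf6, sf3 and sf2. An unadjusted p under 0.05 was found for 4 of the 15. Of all 17059 probe sets, 1826, 1138 and 1573 had such a p in these lines. In the cold 0 of 15 passed by limma (background 0.0117%, 0.0234% and 0.129%). There 2 had an unadjusted p under 0.05, beside 1170, 1004 and 1893 of all probe sets. In drought 0 of 5 passed (background 0.00586%), and 1 had an unadjusted p under 0.05, beside 1231 of all probe sets. BCAT4 gave the widest gap among the control plants. It was 999 ± 2.76 in sf6 control and 999 ± 61.0 in sf2 control, against 784 ± 111 in wt control (SD, n = 2 each). Its log2 difference was 0.35 in each (95% intervals 0.06 to 0.64; adjusted p = 0.355 in sf6 and 0.406 in sf2). In the cold BCAT4 was 608 ± 136 in sf6 and 636 ± 66.5 in sf2, against 475 ± 40.5 in wt (0.33, adjusted p = 0.659, and 0.41, adjusted p = 0.277). PYK10 had differences from wt in the untreated mutants of -0.18 in sf6, -0.16 in sf3 and -0.25 in sf2, and GTR1 of 0.22, 0.25 and 0.29, none past the threshold (lowest adjusted p of these 6 values 0.44). The 3 mutants share their 2 wt control arrays, 1 of them a repeat1 array, and their 2 wt cold arrays. Like signs across the mutants are therefore not independent. After drying PYK10 was 1222 ± 4.38 in sf6, against 918 ± 45.6 in wt (0.41, 95% interval 0.15 to 0.66, adjusted p = 0.464).

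The response itself was also set against that of wt. In the difference of cold response 0 of 15 values passed by limma, where 0.0352%, 0.0528% and 0.117% of all probe sets were called for sf6, sf3 and sf2. Of the 15, 0 had an unadjusted p under 0.05, beside 1867, 1134 and 1863 of all probe sets. GTR1 in sf6 had the largest difference, -0.34 (95% interval -0.70 to 0.01, adjusted p = 0.477). For BCAT4 the difference was -0.02 in sf6 (-0.42 to 0.39), 0.03 in sf3 (-0.38 to 0.44) and 0.06 in sf2 (-0.35 to 0.46), intervals that hold differences of either sign. In the difference of drought response between sf6 and wt 0 of 5 passed by limma and 2 had an unadjusted p under 0.05. These were PYK10 (0.59, SE 0.17, 95% interval 0.23 to 0.95, adjusted p = 0.534) and BCAT4 (-0.59, SE 0.19, -1.0 to -0.19, adjusted p = 0.605). No probe set of the array was called in that comparison (0% of 17059, with 1099 at an unadjusted p under 0.05).

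The 5 genes followed different courses over the compost groups 00f, 03f and 24f. GTR1 peaked in 03f, AOP1 was lowest in 03f, and BCAT4 was lowest while GTR2 and PYK10 were highest in 24f. These 3 groups were fitted on their own (6 arrays, 17062 probe sets). Of 15 values 12 were called, 8 higher and 4 lower. The background was large here as well. In 03f against 00f 11.6% of probe sets were called higher and 18.8% lower, in 24f against 00f 21% and 21.4%, and in 24f against 03f 26.7% and 19.9%. Dividing each array by its median turned the balance in the comparisons with 03f: the shares were then 15.4% and 9.62% in 03f against 00f, 20.7% and 21.1% in 24f against 00f, and 19% and 26.3% in 24f against 03f, and the median change of all probe sets was 0.007 in place of -0.133 in 03f against 00f and -0.046 in place of 0.087 in 24f against 03f.

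GTR1 had 166.4 and 149.2 in 00f, 448.5 and 472.4 in 03f, and 251.9 and 213.6 in 24f. The 3 groups did not overlap. The level in 03f was 292% of that in 00f (log2 change 1.46, SE 0.12, adjusted p = 6.39e-06, 97.3th percentile), and 24f was below 03f (-0.94, adjusted p = 8.35e-05) but still above 00f (0.51, adjusted p = 0.00483). GTR2 had 214.6 and 235.3 in 00f, 184.8 and 216.3 in 03f, and 325.6 and 356.2 in 24f. The first 2 groups overlapped (-0.16, 95% interval -0.42 to 0.10, adjusted p = 0.347), and 24f was above both of them (0.57 against 00f, adjusted p = 0.00274, and 0.72 against 03f, adjusted p = 0.000509). The 2 transporter genes, which fell together in the cold on agar, therefore peaked in different compost groups.

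AOP1 had 34.9 and 33.1 in 00f, 17.9 and 17.5 in 03f, and 53.1 and 63.2 in 24f. All 3 groups stood apart. The change in 03f was -0.57 against 00f (SE 0.14, adjusted p = 0.0101), and 24f was above 00f (0.57, adjusted p = 0.00685) and above 03f (1.13, adjusted p = 6.72e-05). The call in 03f was lost without 00f replicate 1 (adjusted p = 0.0518), 03f replicate 1 (0.0535) or 03f replicate 2 (0.0589), that in 24f against 00f without 24f replicate 2 (0.47, 0.0518), and the size depended on the pseudocount, with -0.90 at 1 and -0.26 at 64 in 03f against 00f, and 0.32 and 0.58 at 64 in 24f against 00f and 03f.

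BCAT4 had 577.9 and 603.1 in 00f, 522.1 and 377.3 in 03f, and 151.6 and 161.9 in 24f. The level in 24f was 26.5% of that in 00f (log2 change -1.81, SE 0.14, adjusted p = 5.25e-06, 0.7th percentile) and 34.9% of that in 03f (-1.41, adjusted p = 1.91e-05). The change of -0.40 in 03f against 00f (95% interval -0.72 to -0.08) missed the threshold (adjusted p = 0.0589). It passed without 03f replicate 1 (-0.62, 0.0178), with quantile normalization (-0.45, 0.0456) and with the replicate number as a block (-0.40, 0.0444).

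PYK10 had 24.0 and 20.4 in 00f, 35.8 and 16.9 in 03f, and 129.4 and 90.1 in 24f. The first 2 groups overlapped (0.11, 95% interval -0.37 to 0.59, adjusted p = 0.729). The level in 24f was 494% of that in 00f, and the log2 change, damped by the pseudocount, was 1.70 against 00f (SE 0.22, adjusted p = 0.000113) and 1.59 against 03f (adjusted p = 0.000154). With a pseudocount of 64 these were 1.00 and 0.94. Over all 13 groups PYK10 had by far the widest span of the 5 genes. Its mean was 22.2 ± 2.55 in 00f and 1619 ± 56.1 in wt control, a ratio of 73.0 between the highest and the lowest group mean, against 3.46 for GTR1, 3.51 for GTR2, 5.36 for AOP1 and 6.38 for BCAT4. The lowest groups of PYK10 and AOP1 lay below the array medians of 38.2 to 44.4, so the sizes of their ratios are uncertain. The highest compost array of PYK10 (129.4) lay below its lowest agar array (803.0). The root markers summed to 25.5 to 44.4 on the compost arrays, against 43.0 to 60.2 on the agar control arrays, the 4 leaf markers to 6278 to 10973, against 10714 to 12419, and FMA was 26.4 to 44.1, against 62.6 to 76.8. On the agar cold arrays PYK10 was 803.0 to 1088.8. There the root markers summed to 26.2 to 54.4 and the leaf markers to 6342 to 9252, and FMA was 48.9 to 82.2. The part of these in the PYK10 levels was not tested.

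**Figure D3:**
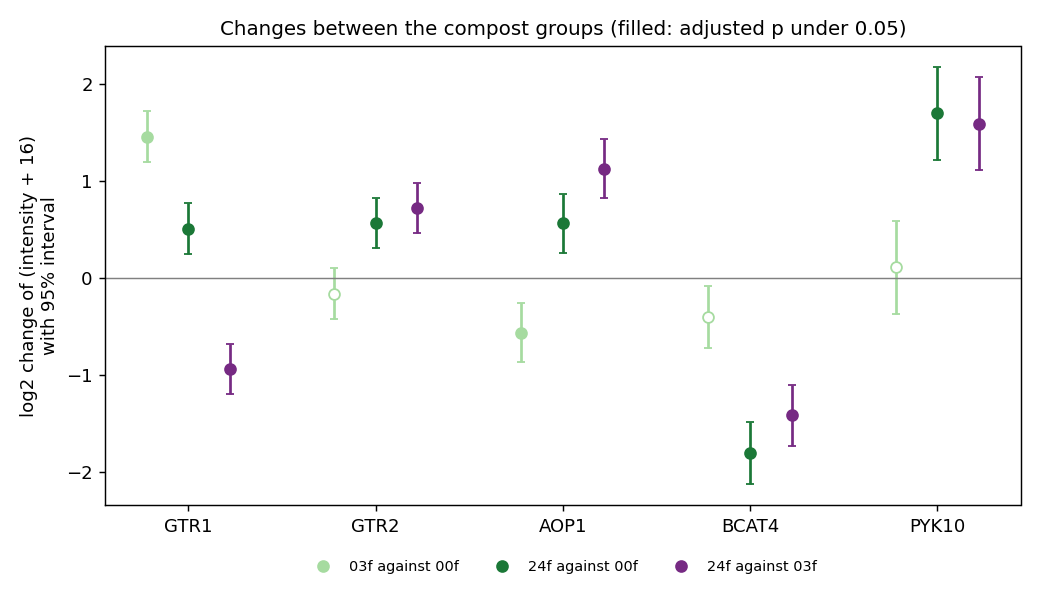
Log2 change of (intensity + 16) with its 95% interval for each gene between the compost groups 00f, 03f and 24f. Filled points passed an adjusted p of 0.05 by limma. GTR1 is at 1.46 in 03f against 00f and at -0.94 in 24f against 03f, BCAT4 is at -1.81 and PYK10 at 1.70 in 24f against 00f.

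Neighbouring groups are described as apart here where their arrays did not overlap. With so few arrays per group this can arise by chance, so it does not show that the levels differ. The order of group means is given as a description. For PYK10 it ran from wt control through sf3, sf6 and sf2 control, sf6 drought, the 4 cold groups with wt drought among them, and then 24f, 03f and 00f, and 7 of the 12 neighbouring pairs had overlapping arrays. The arrays of wt control lay above those of sf3 control, and those of sf2 control above those of sf6 drought. The difference of sf3 control from wt control was not called (limma, adjusted p = 0.876). BCAT4 was led by sf2 and sf6 control, whose arrays overlapped and which stood above sf3 control, and 24f closed the order, with overlaps in 8 of 12 pairs. AOP1 was led by sf2 control and wt drought (8 of 12 pairs overlapped). Its last 3 groups, sf6 cold, 00f and 03f, were each apart from their neighbours. The highest sf6 cold array (53.3) still lay above the lowest 24f array (53.1). GTR1 was led by 03f, wt drought and sf6 drought, each apart from the next (7 of 12 pairs overlapped). The sf6 drought arrays (260.2 and 270.6) still overlapped those of sf3 control (211.0 and 266.5), further down. The last 5 groups were sf2 cold, 00f, sf3 cold, wt cold and sf6 cold, which overlapped in turn. GTR2 was led by 24f, followed by 8 groups that overlapped in turn, and closed with the 4 cold groups (9 of 12).

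Other genes of the pathway were few, since only 13 of the 80 genes on a list of glucosinolate and ER body genes have a probe set that names them alone. No listed regulator gene had one. Beside the 5 genes above, 6 were tested on the agar arrays: the glucosyltransferase genes UGT74B1 and UGT74C1 (AT2G31790), the glutathione transferase gene GSTU20, GSL-OH (AT2G25450), whose dioxygenase hydroxylates the butenyl side chain, and NAI1 and NAI2, a transcription factor gene and a structural gene of ER bodies. CYP79A2, an entry enzyme gene of the phenylalanine branch, and AOP3, a relative of AOP1, were too dim to be tested (group means of at most 2.1 and 14.9). NAI1 passed the filter only through its control and drought arrays, so it is left out of the counts, a choice made after its values were seen. In the cold, 3 of the other 5 fell in wt, 3 in sf6, 4 in sf3 and 3 in sf2, and the rest were not called, where 26.4%, 25.9%, 24.2% and 23% of all probe sets were called lower. In drought 1 of 5 fell in wt and 1 in sf6, in both cases NAI2, where 4.97% and 1.78% of all probe sets were called lower.

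NAI2 had 67.9 and 57.1 in wt cold, against 278.9 and 294.6 in wt control (log2 change -1.95, SE 0.16, adjusted p = 3.63e-08), and its changes in sf6, sf3 and sf2 were -1.68, -1.73 and -1.43. In wt drought it had 133.6 and 142.6 (-0.97, adjusted p = 0.00105), and in sf6 drought 152.5 and 189.8, against 252.7 and 277.0 in sf6 control (-0.59, adjusted p = 0.0486). NAI1, the transcription factor gene on which ER body formation depends, had 2.8 and 6.6 in wt cold, against 48.8 and 43.7 in wt control. Its cold arrays in the 4 lines read 1.8 to 8.1, in the range of probe sets too dim to be tested, so no fold change is given for them. It was not called in wt drought (0.04, adjusted p = 0.922). In the compost groups NAI2 was low as well, with 20.7 ± 1.91 in 00f, 18.2 ± 7.07 in 03f and 44.3 ± 2.12 in 24f (SD, n = 2 each), and 24f was above 00f by 0.72 (adjusted p = 0.00547). Across the 13 group means PYK10 followed NAI2 with a Pearson correlation of 0.85 (Spearman 0.94), and across the 10 agar groups alone with 0.94 (Spearman 0.88). These points share the arrays and the scaling, and the correlations are given as a description.

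**Figure D4:**
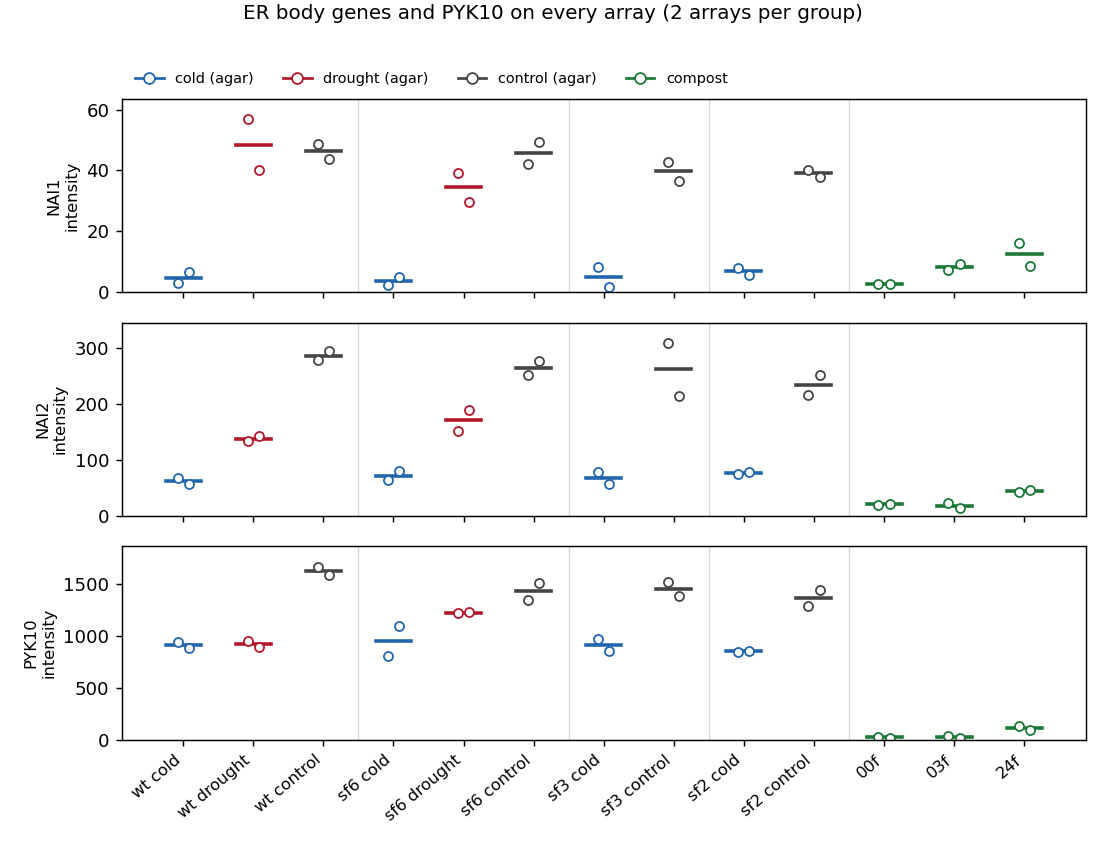
Probe set intensity (linear scale, vertical axes from 0) of NAI1, NAI2 and PYK10 on each array by group, with circles for the 2 arrays and a bar for the mean. NAI2 and PYK10 are highest in the control groups (means of 286.8 and 1619 in wt control) and lowest in the compost groups, and NAI1 is at most 8.10 on the cold arrays.

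In the core pathway UGT74C1 had 221.1 and 147.9 in wt cold, against 412.8 and 329.6 in wt control. Its log2 changes in wt, sf6, sf3 and sf2 were -0.97 (adjusted p = 0.000132), -1.37, -1.31 and -1.02. UGT74B1 was not called in wt cold (-0.03, adjusted p = 0.922) and fell in sf6 (-0.69, adjusted p = 0.00443), sf3 (-0.57, 0.0155) and sf2 (-0.54, 0.0218). The difference of its cold response from that of wt missed the threshold in each, with -0.66 in sf6 (adjusted p = 0.342), -0.54 in sf3 (0.738) and -0.51 in sf2 (0.477). GSL-OH fell in wt (-0.32, adjusted p = 0.0313) and sf3 (-0.42, adjusted p = 0.00683). GSTU20 was called in no cold comparison, with changes between -0.35 and -0.04. In the compost groups, where these 5 were tested, 1 was called lower in 03f against 00f, 5 were called in 24f against 00f (2 higher and 3 lower) and 4 in 24f against 03f (2 higher and 2 lower), beside the background shares given above for these comparisons. GSTU20 had 881.9 and 905.0 in 00f, 814.1 and 685.5 in 03f, and 153.1 and 251.9 in 24f. It fell in 24f against 00f (log2 change -2.10, SE 0.19, adjusted p = 1.1e-05), as BCAT4 did. UGT74C1 had 274.9 and 271.0 in 00f, 88.8 and 110.1 in 03f, and 44.9 and 63.0 in 24f. It was lower in 03f (-1.33, adjusted p = 6.15e-05) and in 24f (-2.06, adjusted p = 2.7e-06) than in 00f. UGT74B1 was lower in 24f than in 00f too (-0.54, adjusted p = 0.0043), while GSL-OH was higher (0.60, adjusted p = 0.00509).

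**Figure D5:**
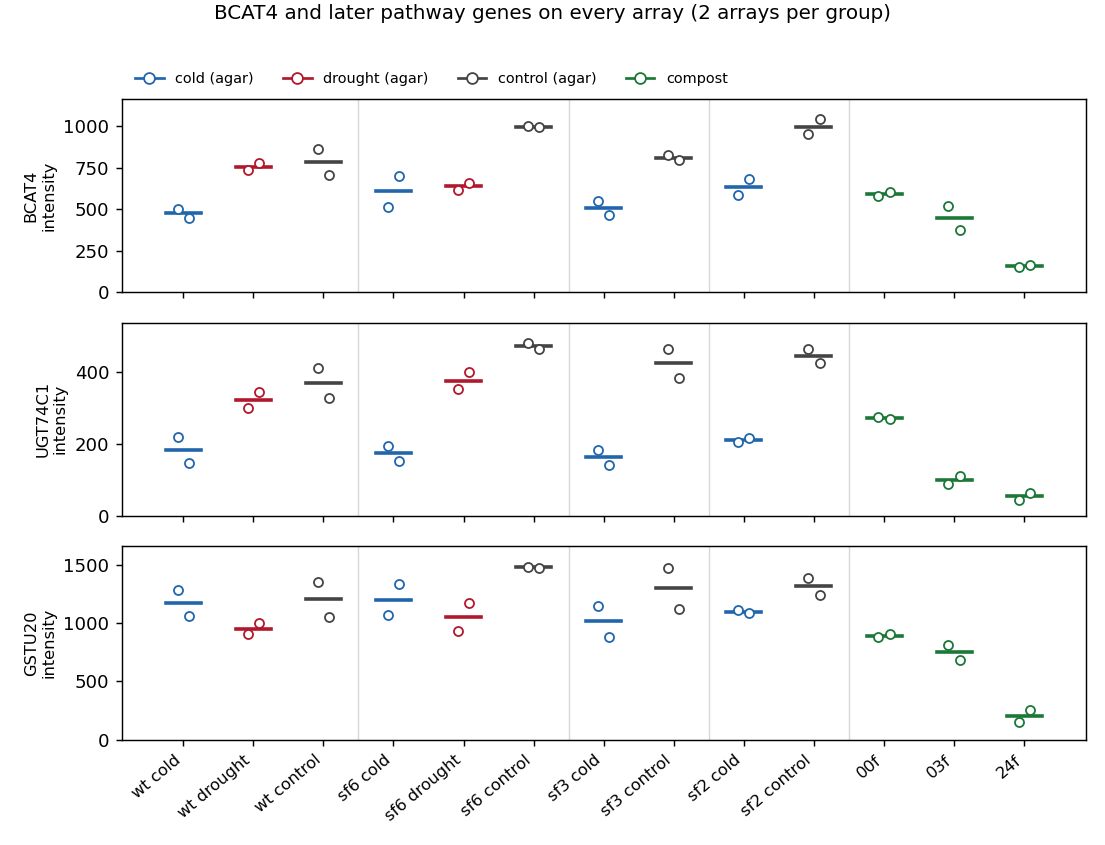
Probe set intensity (linear scale, vertical axes from 0) of BCAT4, UGT74C1 and GSTU20 on each array by group, with circles for the 2 arrays and a bar for the mean. All 3 genes are lowest in 24f, with means of 156.8, 54.0 and 202.5. Taken over all lines on agar, the cold arrays of UGT74C1 lie below its control arrays, while those of GSTU20 overlap its control arrays. Within sf6 and within sf2 the cold arrays of GSTU20 lie below the control arrays.

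The genes with the most similar course were looked up among 9429 other genes, by the Pearson correlation of group means over the 13 groups. For BCAT4 the closest was SIR, the sulfite reductase gene of sulfate assimilation (0.972, Spearman 0.929), followed by LrgB (AT1G32080, 0.953) and AT2G24020 (0.947). For PYK10 they were AT1G61740 (0.985), AT2G23070 (0.984) and AT5G57040 (0.975), but their Spearman values of 0.786, 0.846 and 0.725 were lower. For GTR1 they were AT5G01750 (0.977), AT2G16630 (0.955) and AT1G67530 (0.949), for GTR2 AT3G07570 (0.976), AT2G18670 (0.975) and AT2G32520 (0.973), and for AOP1 AT5G53500 (0.980), AT3G51950 (0.970) and AT4G18593 (0.967). A correlation above 0.9 was reached by 22 genes for GTR1, 183 for GTR2, 120 for AOP1, 46 for BCAT4 and 104 for PYK10. With the 10 agar groups alone these numbers were 1031, 1229, 553, 74 and 120, in the same order. High agar correlations were thus common for GTR1, GTR2 and AOP1. Over the 10 agar groups alone, a choice made after the compost groups had been seen to stand apart, the closest genes were others: AT2G15695 for GTR1 (0.987), AT2G25570 for GTR2 (0.988), AT5G51400 for AOP1 (0.985), AT2G40960 for BCAT4 (0.957) and SAMDC, an S-adenosylmethionine decarboxylase gene, for PYK10 (0.983). Among the 5 genes themselves, correlations depended on the groups used. AOP1 and PYK10 gave 0.84 over the 13 group means and 0.61 over the 10 agar groups. GTR1 and GTR2 gave 0.55 over 13 groups and 0.95 over the 10 agar groups. GTR2 and PYK10 gave -0.56 over 13 groups and 0.72 over the 10 agar groups.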

How the data were processed

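The deposited values are 1 intensity per probe set on a linear scale for 22810 probe sets on 26 arrays, and all arrays share a trimmed mean of 100.01 (2% trimmed at each end), as found from the values. For the summary software and its scaling, the name is not given in the sources used here. Genes were named from the platform annotation and tied to loci through RefSeq. From the intensities, log2(intensity + 16) was tested with limma 3.58.1 in R 4.3.3 (group means, intensity trend, no replicate block), after leaving out the 64 control probe sets and probe sets below the 25th percentile of mean intensity. The 20 agar arrays formed 1 fit (10 residual and 6.54 prior degrees of freedom) and the 6 compost arrays another (3 and 7.45). P-values were adjusted by Benjamini-Hochberg within each of 20 comparisons. With 2 arrays per group an exact permutation test cannot go below p = 0.333, so none was used. Precision is limited by that number of arrays. The fit was tested on simulated data. The genes, lists and comparisons were chosen with earlier results of these data known. Named genes are the 5 genes, the 3 genes most like each, and called genes of the pathway list (up to 4 per step). Alternatives were run on the 5 genes: pseudocounts of 1 and 64, no filter, median scaling, quantile normalization, only the compared groups, a replicate block, and leaving out the repeat1 arrays or each array.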

Additional observations from a re-analysis of the deposited data

How the results depend on the processing

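Of the 100 tested values of the 5 genes, 34 were called. Of these, 27 kept direction and call under every alternative run on them, and 7 lost the call under at least 1, as given beside each result. Of the 66 that were not called 1 was called under some alternative, BCAT4 in 03f against 00f, and no called value changed direction. The counts of called values in the cold, drought and compost comparisons were 19 of 20, 3 of 10 and 12 of 15. With the replicate block they were 19, 3 and 13. The labels tie same-numbered samples by their number alone. In 45 pairs of agar groups the differences between replicates correlated at -0.25 to 0.25, with 5 above 0.1, which gives no sign of pairing. In the 3 pairs of compost groups they correlated at 0.10, 0.11 and 0.21, with 2 above 0.1, so pairing is not settled there, and the block gave 5859 calls in place of 5194 over all probe sets in 03f against 00f and the call of BCAT4. Leaving out each array gave 18 to 19, 2 to 3 and 11 to 12. Leaving out both repeat1 arrays gave 17 in cold and 1 in drought, where each of the 2 groups concerned keeps 1 array, which is assumed to vary like the others. The line differences and differences of response stayed at 0 under every alternative run on them. No other probe set names any of the 5 genes alone, so another probe set could not be put in its place.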
